A study of Mus musculus with 77 samples.

Results

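Livers of mice without iron regulatory protein 1 (IRP1, gene Aco1) were compared with livers of wild-type mice at ZT12, the end of the light phase. Members are all samples of the Aco1 line taken at ZT12, which were picked by their labels alone. They are 23 sequencing samples from 6 livers, 3 Aco1-/- and 3 Aco1+/+, out of 77 samples from 24 livers in the series. Each liver gave 1 library of ribosome-protected fragments (RPFs, the pieces of mRNA that a ribosome shields from nuclease) and 1 library of total RNA, so the 23 samples are runs of 12 libraries among 48. For each of 25266 listed genes, the question was how RNA, RPFs, translation efficiency (TE, RPFs per RNA) and the share of footprints in the 5′ UTR differed between the genotypes.

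IRP1 and its relative IRP2 (gene Ireb2) bind iron-responsive elements (IREs), short hairpins in a small set of mRNAs. A bound IRE in the 5′ UTR keeps ribosomes from the start codon, as in the mRNAs of ferritin and ferroportin, while bound IREs in the 3′ UTR protect the transferrin receptor mRNA from decay. When iron is plentiful, IRP1 takes up an iron-sulfur cluster and works as the cytosolic aconitase ACO1, whereas IRP2 is degraded through the ubiquitin ligase subunit FBXL5. Hepatocytes store iron in ferritin, export it through ferroportin and make hepcidin, the hormone that lowers ferroportin.

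All mice were adult males of 12 to 24 weeks on a C57BL/6J background, kept in a cycle with 12 h of light for at least 8 days. The knockout allele, Aco1 tm1.1Mwh, was constitutive in all cells of the body, and the Aco1+/+ controls came from the same breedings. The allele interrupts the reading frame but is still transcribed. The 2 further sets of 6 livers used below for comparison are Aco1-/- and Aco1+/+ at ZT5, and Ireb2-/- (allele Ireb2 tm1.2Mwh) and Ireb2+/+ at ZT12. The labels name a separate mouse for each replicate, and p-values cover the spread between these mice. Livers are bulk tissue, so fewer cells of a type and less RNA per cell cannot be told apart.

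Total counts in the files ranged from 1546347 to 6743885 in the 6 RNA libraries and from 6945956 to 10590481 in the 6 RPF libraries, with knockout liver 1 the shallowest RNA library. Coding sequence (CDS) held 95.1 to 96.1% of RPF counts in the knockout and 94.8 to 95.1% in the control livers. Levels below are CPM, counts in the CDS relative to library size after upper-quartile scaling, TE is the log2 ratio of RPF to RNA CPM in the same liver, and changes are log2 fold changes, knockout against control, ± SE. A gene is called where edgeR's quasi-likelihood test gave an adjusted p below 0.05 over all genes tested, 10696 for RNA, RPF and TE.

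The knockout RPF libraries were compared with the others in where their footprints lay. For each library, the log2 ratio of 5′ UTR to CDS footprints was taken for 3260 genes and set against the median of the libraries of other groups by Spearman's rho across genes. That value was 0.794, 0.856 and 0.923 in the knockout livers, 0.957 to 0.970 in the controls and 0.911 to 0.971 in the 18 other RPF libraries of the series. Knockout livers 1 and 2 lay below every other library, knockout liver 3 lay within the range of the 18, and the knockout and control livers did not overlap (exact two-sided permutation p = 0.1, the smallest that 3 against 3 allows). Footprints in the 5′ UTR numbered 1.97, 1.97 and 1.56 per 100 in the CDS in the knockout livers and 2.03, 2.31 and 2.59 in the controls (exact permutation p = 0.1), within the 1.28 to 3.42 of the other libraries. Mitochondrially encoded genes took 0.437, 0.437 and 0.531% of CDS footprints in the knockout livers against 0.204 to 0.269% in the controls (exact permutation p = 0.1) and 0.159 to 0.418% elsewhere. In the RNA libraries these genes took 6.47, 5.04 and 7.22% of CDS counts in the knockout and 4.24 to 4.94% in the control livers (exact permutation p = 0.1), against 0.947 to 4.85% in the 18 others, so their share was higher in both kinds of library. For CDS footprints over 10696 genes the same kind of rho was 0.970 to 0.979 in the knockout and 0.983 to 0.988 in the control livers. The RPF libraries of both genotypes were sequenced in 2 runs, and the trailing number in the name of the second run differs between the genotypes, with a meaning that is not given in the sources used here. The first run held 9.05, 20.4 and 26.8% of the counts in knockout livers 1, 2 and 3. In control livers 1, 2 and 3 it held 25.9, 29.4 and 31.4%, so the knockout libraries rest more on the second run. The part of these differences between libraries in the gene results was not tested, so results are also given without single livers.

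**Figure D1:**
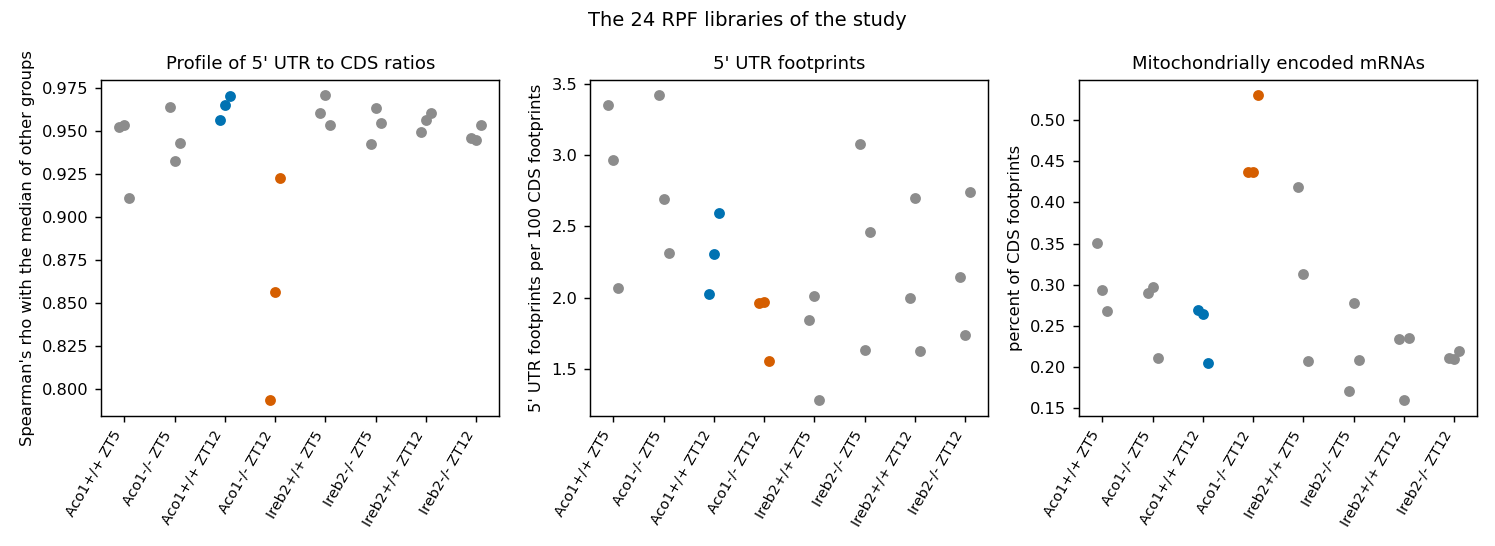
Each point is 1 of the 24 RPF libraries of the series, grouped by line, genotype and time on the horizontal axis. The panels give Spearman's rho of the profile of 5′ UTR to CDS ratios with the median of other groups, 5′ UTR footprints per 100 CDS footprints, and the percent of CDS footprints in mitochondrially encoded genes. In the first panel 2 of the 3 Aco1-/- livers at ZT12 lie below every other library (0.794 and 0.856), and in the third all 3 lie highest (0.437 to 0.531%).

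Aco1 itself (chromosome 4:40143265-40199009, mouse assembly GRCm38.p6) served as the check of the labels. Its RNA was 215, 191 and 168 CPM in the knockout and 319.7, 355 and 358 CPM in the control livers. Its footprints were 123.2, 97.8 and 109.5 CPM in the knockout and 512, 581 and 591 CPM in the control livers. The groups did not overlap in either, and the controls held about the same level in every liver. RNA fell by 0.86 ± 0.15 (adjusted p = 0.0146), RPF fell by 2.35 ± 0.15 (adjusted p = 6.09e-08) and TE fell by 1.501 ± 0.14 (adjusted p = 9.46e-09). Aco1 was thus the only RNA called among 10696 (0.00935% called lower, 0 called higher), while 819 RNAs had an unadjusted p below 0.05. The RNA call was lost without control liver 2, control liver 3 or knockout liver 3 and with counts over all columns (−0.81), and the count of RNA calls was 3 without knockout liver 1 and 51 without knockout liver 2. The TE call of Aco1 held in all 6 fits that left out 1 liver. It was lost with limma on TE per mouse, a setting that called 0 genes. The footprints that remained on Aco1 lay more often in its 5′ UTR. The log2 ratio of 5′ UTR to CDS footprints was −3.70, −4.26 and −4.63 in the knockout and −5.89, −5.91 and −5.78 in the control livers, a rise of 1.70 ± 0.39 (adjusted p = 0.00658), with 72, 29 and 24 5′ UTR footprints in the knockout and 66, 71 and 89 in the control livers. This call was lost without knockout liver 1.

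Among 5 mRNAs with an established IRE in the 5′ UTR, TE was above 0 in 5 of 5 and 1, Slc40a1, passed the test, beside 0.0467% of all genes called higher in TE. The median TE change of the 5 was 0.59, against 0.0078 over all genes tested. Groups did not overlap and were higher in the knockout for 3 of 5 (Slc40a1, Alas2 and Epas1), beside 6.07% of all genes. For RNA the median was −0.020 and 0 of 5 were called in either direction. For RPF it was 0.60, with 5 of 5 above 0, 0 called, and 1 (Epas1) with groups that did not overlap, where 9.83% of all genes did so upward.

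Slc40a1 (chromosome 1:45908070-45926532) encodes ferroportin, the exporter that releases iron from cells. Its log2 TE was −0.024, 0.38 and 0.42 in the knockout and −0.67, −0.45 and −0.23 in the control livers. Every knockout liver lay above every control, and TE rose by 0.74 ± 0.15 (adjusted p = 0.0171). Its RNA was 133.3, 272 and 302 CPM in the knockout and 160.3, 177 and 183 CPM in the control livers, and its footprints were 131.5, 356 and 403 CPM in the knockout and 100.5, 130.2 and 156 CPM in the control livers. In both, knockout livers 2 and 3 were high. Knockout liver 1 lay below the controls in RNA and among them in footprints, so the groups overlapped, with changes of 0.47 ± 0.26 (adjusted p = 0.715) for RNA and 1.20 ± 0.39 (adjusted p = 0.261) for RPF. Without knockout liver 1 the RPF change was 1.56 and was called (edgeR, adjusted p = 0.018), and it was 0.92 without knockout liver 3. The TE call was lost without knockout liver 2, control liver 1 or control liver 2, with values between 0.63 and 0.85 over the livers left out, and in 4 other settings, while its direction held in all. In the 18 other livers of the series the TE of Slc40a1 ran from −0.28 to 0.65, a range that holds all 3 knockout values but not the lowest control values of −0.67 and −0.45.

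Fth1 (chromosome 19:9980600-9985111), the ferritin heavy chain, had log2 TE of −2.05, −1.21 and −0.19 in the knockout and −3.54, −2.18 and −2.04 in the control livers. Knockout liver 3 was the highest and control liver 1 the lowest, and knockout liver 1 lay among the controls, so the groups overlapped. The change was 1.44 ± 0.54 (adjusted p = 0.671), with RNA at −0.50 ± 0.16 (adjusted p = 0.472) and RPF at 0.99 ± 0.37 (adjusted p = 0.319). Ftl1, the ferritin light chain, had log2 TE of −4.30, −1.93 and −2.98 in the knockout and −4.08, −3.0 and −2.58 in the control livers, which spread as widely within as between the groups (0.24 ± 0.66, adjusted p = 0.976). Reads of both ferritin genes can be shared with processed copies elsewhere in the genome, so their levels are uncertain. Alas2, the erythroid form of the first enzyme of heme synthesis, had log2 TE of −0.40, 0.0078 and −0.15 in the knockout and −1.11, −0.68 and −0.50 in the control livers. Its groups did not overlap, yet the change of 0.59 ± 0.17 (adjusted p = 0.238) did not pass. Its RNA change was −0.02 ± 0.34 (adjusted p = 0.994).

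Epas1, which encodes the hypoxia-inducible factor HIF2α, had footprints of 338, 394 and 352 CPM in the knockout and 239, 282 and 297 CPM in the control livers and log2 TE of 1.04, 1.12 and 0.83 in the knockout and 0.19, 0.73 and 0.76 in the control livers. The knockout livers lay above the controls in both, and the changes were 0.41 ± 0.19 (adjusted p = 0.382) for RPF and 0.43 ± 0.16 (adjusted p = 0.489) for TE. The spread between livers was widest for the ferritin mRNAs, whose TE had standard errors of 0.54 (Fth1) and 0.66 (Ftl1), against 0.15 for Slc40a1.

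**Figure D2:**
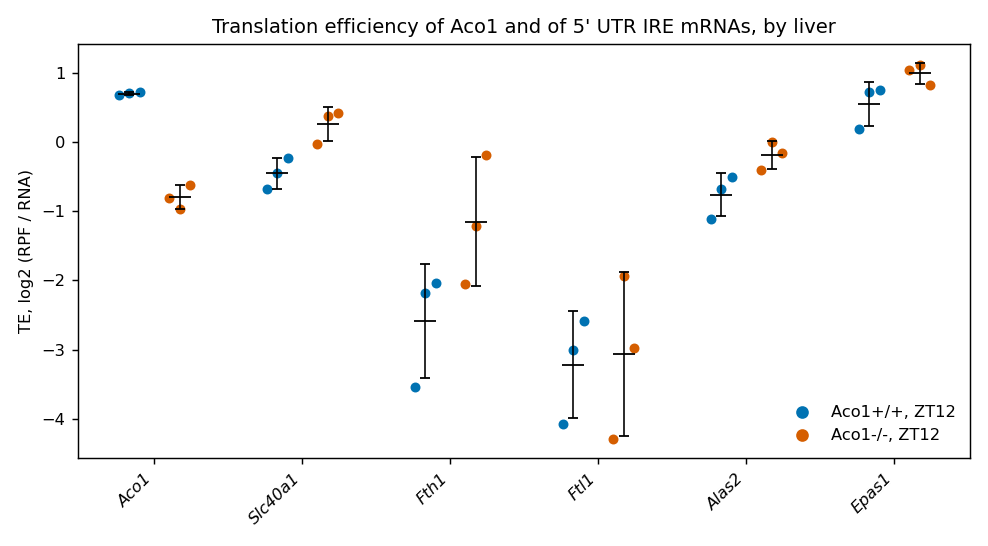
Log2 TE (RPF over RNA CPM) of Aco1 and of 5 mRNAs with a 5′ IRE in each liver at ZT12. Points are livers and bars are the mean ± SD of 3 livers. Knockout livers lie above all controls for Slc40a1, Alas2 and Epas1, the groups overlap for Fth1 and Ftl1, and Aco1 lies far lower in the knockout.

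Of the 4 mRNAs of this list with enough 5′ UTR footprints to test, Fth1 passed. Its log2 ratio of 5′ UTR to CDS footprints was −0.53, −1.67 and −3.57 in the knockout and −4.08, −3.99 and −4.23 in the control livers, and it rose by 2.22 ± 0.48 (adjusted p = 0.00463). This ratio rests on 851, 623 and 222 5′ UTR footprints in the knockout livers and 44, 81 and 98 in the controls, so knockout liver 1 held most of them. Without that liver the call was lost, at 1.503. All 3 knockout values lay above the −8.41 to −4.70 of the 18 other RPF libraries, and so did the 3 controls. The ratio of Slc40a1 was lower in every knockout liver (−5.30, −4.93 and −5.68 in the knockout and −4.58, −4.09 and −4.27 in the control livers) but did not pass, at −0.99 ± 0.37 (adjusted p = 0.0725). The ratio of Ftl1 lay at 0.30 ± 0.44 (adjusted p = 0.680) and that of Epas1 at 0.076 ± 0.36 (adjusted p = 0.909).

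The RNA of the 2 mRNAs with IREs in the 3′ UTR did not pass the test over all 6 livers. Tfrc, the transferrin receptor that takes up iron, had RNA of 58.0, 16.2 and 10.1 CPM in the knockout and 60, 40.2 and 38.7 CPM in the control livers. Knockout livers 2 and 3 lay below all controls, knockout liver 1 was as high as the highest control, and the change was −1.03 ± 0.52 (adjusted p = 0.698). Its footprints were 66.7, 19.4 and 16.98 CPM in the knockout and 65.3, 45.0 and 55.7 CPM in the control livers (−0.67 ± 0.45, adjusted p = 0.571). Both values moved with single livers. Without knockout liver 1 Tfrc was called lower in RNA at −1.81 (edgeR, adjusted p = 1.76e-04) and in RPF at −1.60 (adjusted p = 0.00292), while without knockout liver 3 they were −0.57 and −0.35 and did not pass. Slc11a2, the iron importer DMT1, lay at −0.20 ± 0.24 (adjusted p = 0.886) in RNA, a value that turned to 0.19 in the first sequencing run alone. Of the proteins that control this system, Ireb2 had RNA of 124.1, 118 and 94.7 CPM in the knockout and 113, 166 and 171 CPM in the control livers (−0.43 ± 0.16, adjusted p = 0.519) and footprints of 74.4, 66.9 and 79.8 CPM in the knockout and 56.6, 71.0 and 74.8 CPM in the control livers (0.13 ± 0.15, adjusted p = 0.772). Its TE lay higher in every knockout liver but did not pass (0.55 ± 0.17, adjusted p = 0.357). Fbxl5 RNA was lower in every knockout liver, 39.7, 41.3 and 34.0 CPM in the knockout and 44.3, 46.5 and 47.8 CPM in the control livers, with a change of −0.28 ± 0.17 (adjusted p = 0.724).

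Of 33 tested mRNAs that earlier work predicted to hold IRE-like structures, taken from the genes that the study clustered in these samples, 0 passed in RNA, RPF or TE. Its RPF median was 0.055, near the 0.017 of all genes. Hao1, the liver enzyme glycolate oxidase, came closest to the threshold. Its footprints were 343, 356 and 378 CPM in the knockout and 543, 503 and 552 CPM in the control livers, so all 3 knockout livers were lower (−0.57 ± 0.13, adjusted p = 0.0741). Ormdl1, a regulator of sphingolipid synthesis, was high in knockout livers 1 and 2 and overlapped the controls in liver 3, with footprints of 10.1, 8.84 and 3.43 CPM in the knockout and 1.94, 2.57 and 3.48 CPM in the control livers (1.49 ± 0.35, adjusted p = 0.0817), and it was called without knockout liver 3 (1.82, adjusted p = 0.00728). Phb, a scaffold protein of the inner mitochondrial membrane, was the member called in the 5′ UTR ratio, which fell by 2.67 ± 0.53 (adjusted p = 0.00276).

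Hepcidin (Hamp) and the genes of the BMP pathway that drives it held no call in RNA, RPF or TE among 19 tested. Hamp RNA was 496, 597 and 1383 CPM in the knockout and 494, 566 and 538 CPM in the control livers. Knockout liver 3 stood far above the other 5, the groups overlapped, and the change was 0.64 ± 0.39 (adjusted p = 0.746). Its footprints were 1153, 1279 and 2056 CPM in the knockout and 1670.0, 1325 and 1226 CPM in the control livers, with a change of 0.089 ± 0.31 (adjusted p = 0.934) that turned to −0.21 without knockout liver 3. The BMP target Id1 was also highest in that liver, with RNA of 9.16, 4.04 and 19.6 CPM in the knockout and 2.42, 4.34 and 4.40 CPM in the control livers (1.56 ± 0.53, adjusted p = 0.525). Hamp2, a paralogue of hepcidin, and Smad7, a feedback inhibitor of BMP signalling, were chosen after their values were seen. Hamp2 RNA was 3.05, 5.48 and 168 CPM in the knockout and 13.7, 11.3 and 7.86 CPM in the control livers and Smad7 RNA 7.12, 10.96 and 33.8 CPM in the knockout and 10.9, 8.04 and 11.9 CPM in the control livers, so knockout liver 3 was again the highest for both. Acvr2a, an activin receptor, had the smallest RNA p downward, at −0.54 ± 0.21 (adjusted p = 0.542).

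Other lists of iron biology held no calls in RNA, RPF or TE. Of 19 genes of iron transport and storage, 5 had RPF groups that did not overlap upward and 3 downward, beside 9.83% upward and 10.6% downward of all genes. Steap3, a ferrireductase, had footprints of 24.2, 26.9 and 22.0 CPM in the knockout and 17.2, 14.5 and 21.2 CPM in the control livers (0.46 ± 0.18, adjusted p = 0.290). Cd163, the hemoglobin scavenger of macrophages, had RNA of 47.8, 23.1 and 20.7 CPM in the knockout and 45.9, 46.0 and 47.1 CPM in the control livers (−0.76 ± 0.21, adjusted p = 0.426), with knockout liver 1 at the control level. Ncoa4, the receptor that delivers ferritin to lysosomes, had TE at 0.85 ± 0.34 (adjusted p = 0.627). Of 17 heme genes, Cpox, coproporphyrinogen oxidase, had lower footprints in every knockout liver, 162, 159 and 156 CPM in the knockout and 244, 202 and 194 CPM in the control livers (−0.42 ± 0.15, adjusted p = 0.250), and Slc48a1, a heme transporter, had RNA at 1.01 ± 0.32 (adjusted p = 0.472). Of 26 genes of iron-sulfur cluster assembly, 8 had RPF groups that did not overlap downward and 0 upward, with a median of −0.21. Iscu, the scaffold on which the clusters are built, had footprints of 13.3, 15.8 and 15.9 CPM in the knockout and 32.8, 30.7 and 25.6 CPM in the control livers, lower in every knockout liver, with a change of −0.99 ± 0.22 (adjusted p = 0.0617). Among 20 HIF targets the RPF median was −0.038, and Ddit4, an inhibitor of mTORC1 signalling, had RNA at 1.27 ± 0.39 (adjusted p = 0.472).

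Across all genes, more were called in footprints than in RNA. In RPF, 32 of 10696 genes were called (0.299%), 11 higher (0.103%) and 21 lower (0.196%), and 1355 had an unadjusted p below 0.05. In TE, 10 were called (0.0935%), 5 in each direction (0.0467% higher, 0.0467% lower). Of these, Aco1, Mrfap1, Mup12, mt-Co1 and mt-Nd5 passed in both. In RNA, groups that did not overlap made up 5.41% of genes upward and 6.15% downward. The count of RPF calls rested on single livers and was 9, 9 and 7 without control liver 1, 2 or 3, 16 and 8 without knockout liver 1 or 2, and 160 without knockout liver 3. The count in TE was 4 without control liver 2, 27 without knockout liver 2 and 58 without knockout liver 3. DESeq2 called 41 genes higher and 81 lower in RPF. In TE the split moved with the setting, with 13 higher and 2 lower by DESeq2 and 10 higher and 23 lower with counts over all columns.

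The RNAs nearest to the threshold are named though they did not pass. Tmem53, a membrane protein of the nuclear envelope, had RNA of 20.4, 23.7 and 38.11 CPM in the knockout and 12.1, 16.9 and 12.3 CPM in the control livers (1.03 ± 0.23, adjusted p = 0.286). Wdr62, a centrosomal scaffold, had RNA of 7.12, 4.62 and 5.45 CPM in the knockout and 0.805, 1.30 and 1.57 CPM in the control livers (2.07 ± 0.50, adjusted p = 0.385), and Rpl23a, a ribosomal protein, 41.7, 32.9 and 51.5 CPM in the knockout and 20.9, 24.1 and 23.3 CPM in the control livers (0.88 ± 0.22, adjusted p = 0.385). Ppp4r2, a regulatory subunit of protein phosphatase 4, had RNA of 5.09, 5.77 and 5.99 CPM in the knockout and 17.7, 13.2 and 12.3 CPM in the control livers (−1.30 ± 0.29, adjusted p = 0.286). With counts over all columns the change of Ppp4r2 was only −0.21. In all 4 the knockout and control livers did not overlap, and without knockout liver 2 Tmem53 (1.18, adjusted p = 0.0227) and Rpl23a (1.06, adjusted p = 0.0272) were called, while without knockout liver 3 they lay at 0.68 and 0.66 and did not pass.

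**Figure D3:**
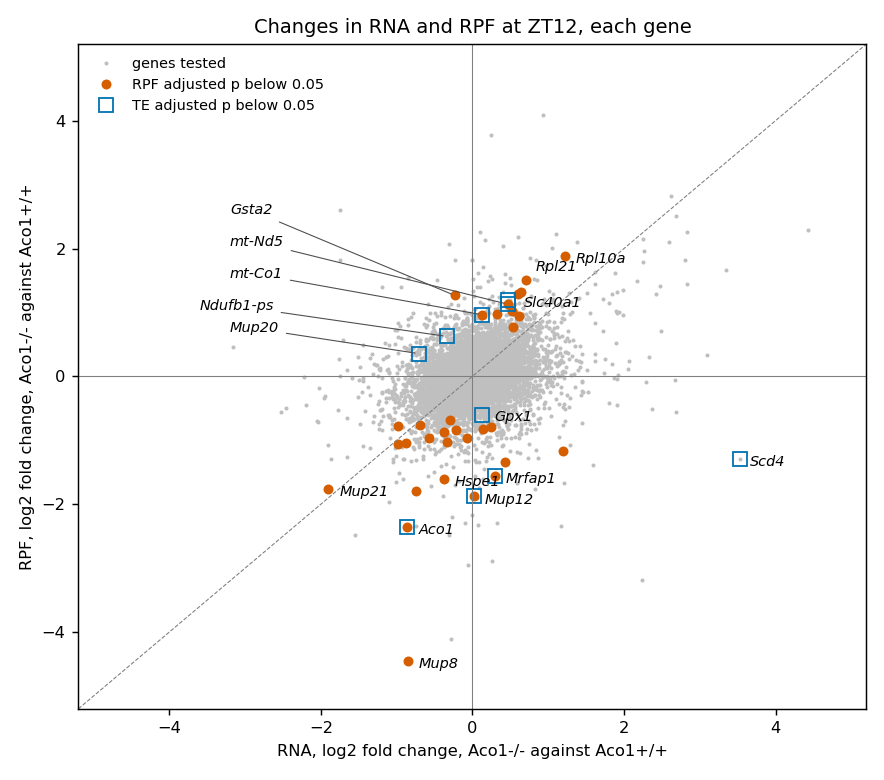
Log2 fold change of RPF (vertical axis) against that of RNA (horizontal axis), Aco1-/- against Aco1+/+ at ZT12, 1 point per gene tested. Filled circles mark the 32 genes called in RPF, open squares the 10 called in TE, and the dashed line is where RPF and RNA change alike; 3 genes lie outside the axes. Aco1 and Mup8 lie far below the cloud, and 6 mitochondrially encoded genes are among the 11 called higher in RPF.

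The mitochondrial genome encodes 13 subunits of the respiratory chain and ATP synthase, which ribosomes inside the organelle translate. Of the 12 of these genes that could be tested (mt-Co2 had too few counts), 6 were called higher in RPF and 0 lower, where 0.103% of all genes were called higher. The groups did not overlap upward for 9, beside 9.83% of all genes, and the median RPF change was 0.995. Among the 9 is mt-Co3, which rests on 2, 4 and 2 footprints in the knockout and 0, 1 and 1 in the control livers. In RNA 0 were called, with a median of 0.49 and groups that did not overlap upward for 4, beside 5.41% of all genes. In TE 2 were called higher, mt-Co1 and mt-Nd5, beside 0.0467% of all genes, with a median of 0.60.

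Footprints of mt-Nd5, a subunit of complex I, were 832, 843 and 885 CPM in the knockout and 418, 427 and 325 CPM in the control livers. Those of mt-Nd4, of the same complex, were 190.0, 204 and 259 CPM in the knockout and 106.8, 93.4 and 67.6 CPM in the control livers, and those of mt-Nd2 808, 683 and 690.4 CPM in the knockout and 313, 312 and 246 CPM in the control livers. For each of these the lowest knockout liver lay well above the highest control, and the changes were 1.13 ± 0.14 (adjusted p = 0.00105), 1.29 ± 0.18 (adjusted p = 0.00215) and 1.32 ± 0.20 (adjusted p = 0.00397). Called as well were mt-Atp8 of ATP synthase (1.03 ± 0.17, adjusted p = 0.0128), mt-Cytb of complex III (0.94 ± 0.17, adjusted p = 0.0214) and mt-Co1 of complex IV (0.96 ± 0.17, adjusted p = 0.0214). In all 6 the lowest knockout liver exceeded every one of the 18 other RPF libraries of the series. Leaving out each liver in turn kept the calls of mt-Nd4 and mt-Nd5 in 6 of 6 fits, of mt-Nd2 in 5, of mt-Atp8 in 4, of mt-Co1 in 2 and of mt-Cytb in 1. All 6 were kept in the 8 other settings, other scalings included.

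The RNA of these genes did not pass over all 6 livers. It lay at 0.71 ± 0.22 for mt-Nd1, 0.65 ± 0.16 for mt-Nd2, 0.62 ± 0.19 for mt-Cytb and 0.60 ± 0.15 for mt-Nd4, and at 0.46 ± 0.13 for mt-Nd5 and 0.13 ± 0.13 for mt-Co1. Without knockout liver 2, the lowest of its group in the share of mitochondrial RNA, the first 4 were called in RNA (edgeR, 0.95 for mt-Nd1, 0.84 for mt-Nd2, 0.78 for mt-Cytb and 0.73 for mt-Nd4, with adjusted p from 0.0124 to 0.0482). Without knockout liver 3, the highest in that share, the same values were 0.45, 0.47, 0.39 and 0.48 and did not pass. The log2 TE of mt-Co1 was −3.07, −2.79 and −2.44 in the knockout and −3.53, −3.56 and −3.69 in the control livers, a rise of 0.83 ± 0.13 (adjusted p = 0.00100), and that of mt-Nd5 was −3.14, −2.90 and −3.04 in the knockout and −3.58, −3.70 and −3.83 in the control livers, a rise of 0.67 ± 0.12 (adjusted p = 0.00278). Every knockout liver lay above every control for both. Both TE calls were lost with libraries not paired by mouse and with limma on TE per mouse, and that of mt-Nd5 also without control liver 2 or control liver 3. In TE, mt-Nd2 (0.92, adjusted p = 0.00526) and mt-Atp8 (0.55, adjusted p = 0.00894) were called without knockout liver 3, and mt-Nd4 (0.93, adjusted p = 0.0471) without control liver 1. Other members did not pass. The RPF difference was 0.89 ± 0.23 (adjusted p = 0.125) for mt-Nd1 and 1.45 ± 0.59 (adjusted p = 0.323) for mt-Atp6, on 4 to 16 counts a library for mt-Atp6. mt-Nd4l had a lower TE in every knockout liver (−1.36 ± 0.31, adjusted p = 0.0843), with footprints at −0.75 ± 0.31 (adjusted p = 0.321), and its TE was called without knockout liver 3 (−1.59, adjusted p = 0.00918) or control liver 3 (−1.61, adjusted p = 0.0265). mt-Nd6, the one member on the other strand, had RNA of 456, 584 and 301 CPM in the knockout and 638, 737 and 621 CPM in the control livers, so all 3 knockout livers were lower (−0.58 ± 0.21, adjusted p = 0.571). mt-Nd4l overlaps mt-Nd4, and mt-Atp8 overlaps mt-Atp6, and how the counting divided their reads is not given in the sources used here. The authors kept RPF reads of 24 to 35 bases, so mitochondrial footprints of other lengths are not in these counts. The share of mitochondrial counts given above for the RPF and RNA libraries is the sum over these same genes, so it is not a separate observation. The part of library preparation or sequencing in their shift was not tested.

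**Figure D4:**
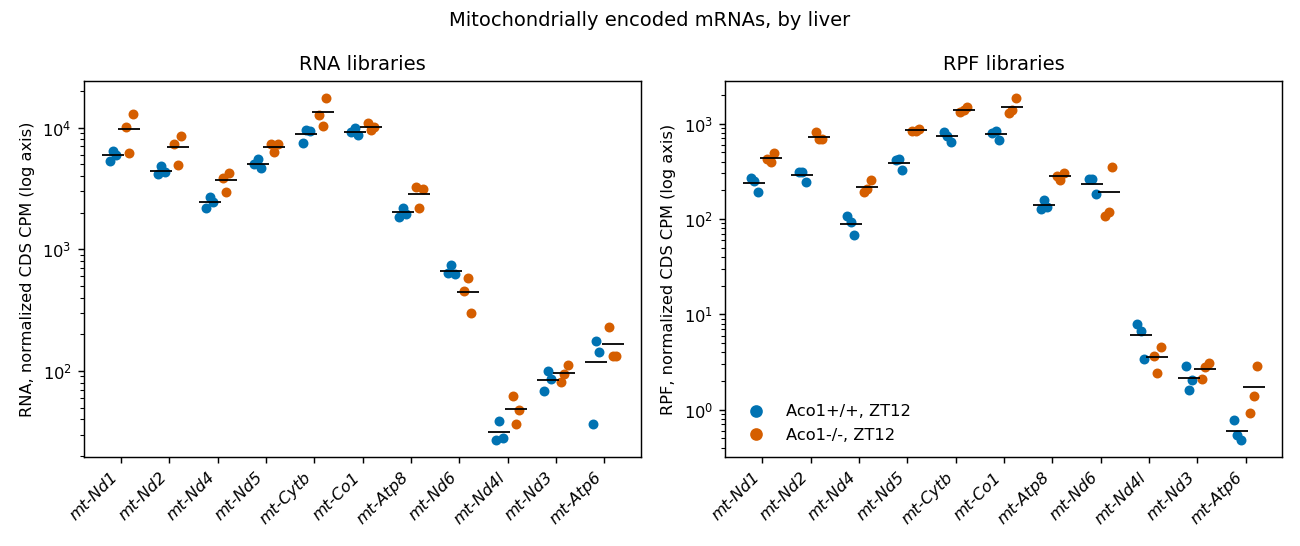
RNA and RPF levels (CPM, log axis) of 11 mitochondrially encoded genes in each liver at ZT12, with bars at the group means; mt-Co3 is left out because 1 RPF value is 0. RPF points of the knockout livers lie above those of the controls for mt-Nd5, mt-Nd4, mt-Nd2, mt-Atp8, mt-Cytb, mt-Co1, mt-Nd1 and mt-Atp6, while the groups overlap for mt-Nd3, mt-Nd4l and mt-Nd6.

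Major urinary proteins (MUPs) are small carrier proteins that the male liver secretes in quantity. Their genes lie in a cluster of near-identical copies on chromosome 4, the chromosome that also holds Aco1, so reads can be shared between copies and each value is uncertain. Of 16 tested, 4 were called lower in RPF and 0 higher, beside 0.196% lower and 0.103% higher of all genes. Mup8 (chromosome 4:60218620-60222565) had footprints of 1.04, 1.04 and 0.723 CPM in the knockout and 32.8, 17.4 and 13.3 CPM in the control livers, and fell by 4.45 ± 0.44 (adjusted p = 2.99e-04), with 4 to 8 counts in a knockout library and up to 254 in a control. Its RNA rested on 0 to 9 counts a library. Mup21 was lower in RNA as well as in footprints. Its RNA was 52.9, 66.4 and 33.2 CPM in the knockout and 186, 187 and 193 CPM in the control livers (−1.90 ± 0.34, adjusted p = 0.385) and footprints were 64.5, 65.2 and 82.4 CPM in the knockout and 252, 229 and 234.4 CPM in the control livers (−1.76 ± 0.26, adjusted p = 0.00890). Mup12 footprints were 34.2, 16.1 and 12.7 CPM in the knockout and 73.2, 72.05 and 89.6 CPM in the control livers (−1.88 ± 0.26, adjusted p = 0.00397) and its TE fell by 2.05 ± 0.26 (adjusted p = 1.35e-05). Mup13 fell by 1.17 ± 0.24 in RPF (adjusted p = 0.0499). In each of the 4 the knockout and control footprints did not overlap. Of the fits that left out 1 liver, the calls of Mup8 and Mup12 were kept in 6 of 6, that of Mup21 in 4 and that of Mup13 in 1. Mup12 lost its RPF call with only the 6 mice compared and its TE call with libraries not paired by mouse and with limma, and Mup13 lost its call in 5 of 8 other settings. The RNA of Mup21 was called lower without knockout liver 2 (−2.22, adjusted p = 0.0272) and, with all 6 livers, by DESeq2, in the first sequencing run alone and with only the 6 mice compared.

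Mup20 (darcin) went the other way in TE, with log2 values of 0.40, 0.80 and 0.37 in the knockout and −0.46, −0.58 and −0.51 in the control livers and a rise of 1.04 ± 0.16 (adjusted p = 0.00234). This rise rested on the CDS column, and with counts over all columns of the files the value was −0.42. The TE call was also lost without knockout liver 3, with libraries not paired by mouse and with limma. The ratio of 5′ UTR to CDS footprints of the same gene was −2.11, −2.24 and −1.22 in the knockout and 0.84, 1.20 and 1.34 in the control livers, and it fell by 2.98 ± 0.43 (adjusted p = 7.69e-05), with 2460, 1840 and 1550 5′ UTR footprints in the knockout and 13106, 11069 and 24637 in the control livers. The knockout values lay below those of all 18 other RPF libraries (0.14 to 1.89). Mup10 was likewise lower, at −3.10 ± 0.49 (adjusted p = 2.38e-04), and Mup21 at −1.39 ± 0.41 (adjusted p = 0.0252). Mup9 was called lower as well (adjusted p = 0.0430), with 11, 3 and 3 5′ UTR footprints in the knockout and 172, 105 and 169 in the control livers, but it had 0 or 1 footprint in the CDS of each library, so its ratio has no defined size. Of the fits that left out 1 liver, the ratio calls of Mup20 and Mup10 were kept in 6 of 6, that of Mup21 in 3 and that of Mup9 in 2. The 4 were the calls among 7 Mup genes with enough 5′ UTR counts.

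Ubb, a polyubiquitin gene, had footprints of 105, 95.0 and 104 CPM in the knockout and 182, 193 and 182 CPM in the control livers (−0.88 ± 0.14, adjusted p = 0.0102). Psmb3, a subunit of the proteasome core, had 25.2, 23.1 and 40.3 CPM in the knockout and 62.8, 56.2 and 53.2 CPM in the control livers (−0.96 ± 0.18, adjusted p = 0.0388), and Rnf5, a ubiquitin ligase of the endoplasmic reticulum, 16.6, 14.7 and 15.0 CPM in the knockout and 27.4, 24.7 and 27.9 CPM in the control livers (−0.79 ± 0.15, adjusted p = 0.0424). Hspe1, the mitochondrial co-chaperonin HSP10, had footprints of 15.3, 16.8 and 32.9 CPM in the knockout and 65.5, 63.7 and 66.3 CPM in the control livers (−1.60 ± 0.29, adjusted p = 0.0432), with knockout liver 3 between the rest of its group and the controls. In none of these did the groups overlap, and the RNA of Ubb (−0.37 ± 0.17), Psmb3 (−0.57 ± 0.22), Rnf5 (0.24 ± 0.26) and Hspe1 (−0.38 ± 0.28) did not pass. Each of these 4 calls was lost in at least 4 of the 6 fits that left out 1 liver.

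Mrfap1, a small protein that binds a chromatin factor of the MORF family, was called in 3 measures. Its footprints were 6.79, 9.02 and 11.6 CPM in the knockout and 25.9, 25.7 and 28.2 CPM in the control livers, and fell by 1.56 ± 0.23 (adjusted p = 0.00356). Its TE fell by 1.81 ± 0.32 (adjusted p = 0.00309), with RNA at 0.29 ± 0.26, and its 5′ UTR to CDS ratio rose by 1.09 ± 0.34 (adjusted p = 0.0332). The RPF call held in all 6 fits that left out 1 liver and was lost with counts over all columns. The TE call held in 5 of the 6, and was also lost with libraries not paired by mouse and with limma, and the call of the ratio held in 2. Ddx39b, an RNA helicase of splicing and export, had footprints of 36.8, 37.3 and 36.0 CPM in the knockout and 61.3, 60.8 and 54.1 CPM in the control livers (−0.68 ± 0.13, adjusted p = 0.0399), and Hmgn5, a nucleosome-binding protein, had 17.6, 15.8 and 30.0 CPM in the knockout and 38.3, 46.9 and 46.2 CPM in the control livers (−1.06 ± 0.21, adjusted p = 0.0432). The knockout and control livers did not overlap for either gene, yet each call was kept in only 1 of the 6 fits that left out 1 liver. The remaining RPF calls downward, named after their values were seen, were Mlkl (−1.79), Nme2 (−1.34), Ywhaz (−1.04), Rrp7a (−1.03), Pgrmc2 (−0.97), Cetn3 (−0.78), Luc7l3 (−0.76) and 2 predicted genes. Of the fits that left out 1 liver, the call of Ywhaz was kept in 2 of 6 and those of the other 6 named in 1.

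Upward, the RPF calls outside the mitochondrial genome were Rpl10a, Rpl21, Prg4, Pias1 and Gsta2. Footprints of Rpl10a were 7.71, 9.88 and 4.34 CPM in the knockout and 1.68, 2.30 and 1.92 CPM in the control livers (1.89 ± 0.35, adjusted p = 0.0280) and of Rpl21 18.6, 19.2 and 11.02 CPM in the knockout and 3.23, 7.03 and 6.96 CPM in the control livers (1.504 ± 0.29, adjusted p = 0.0399). Both encode proteins of the large ribosomal subunit with many processed copies in the genome, so their low counts are uncertain. Prg4, a secreted lubricating proteoglycan, had footprints of 189.5, 178 and 114 CPM in the knockout and 80.2, 74.6 and 90.8 CPM in the control livers (0.97 ± 0.20, adjusted p = 0.0432), and Pias1, a SUMO ligase, had 29.4, 23.4 and 24.6 CPM in the knockout and 15.0, 13.8 and 16.7 CPM in the control livers (0.77 ± 0.16, adjusted p = 0.0451). Gsta2, a glutathione transferase, had 9.14, 11.3 and 12.5 CPM in the knockout and 5.17, 4.05 and 4.32 CPM in the control livers (1.27 ± 0.27, adjusted p = 0.0499). All 3 knockout livers were higher than all controls for these 5, and each call was lost in at least 5 of the 6 fits that left out 1 liver.

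In TE, Gpx1 fell while its RNA did not pass. Gpx1 is the cytosolic glutathione peroxidase, a selenoprotein. Its log2 TE was −0.39, −0.19 and −0.44 in the knockout and 0.57, 0.44 and 0.11 in the control livers, and it fell by 0.72 ± 0.13 (adjusted p = 0.00463), and the knockout values lay below those of all 18 other livers. Its footprints lay at −0.61 ± 0.24 (adjusted p = 0.321) and its RNA at 0.12 ± 0.21 (adjusted p = 0.928). The TE call was lost without knockout liver 1, control liver 1 or control liver 2, with libraries not paired by mouse and with limma. Ndufb1-ps, whose symbol marks a pseudogene of a complex I subunit though it held counts in the CDS column, rose in TE by 0.92 ± 0.18 (adjusted p = 0.0163). This call was kept in 2 of the 6 fits that left out 1 liver. The gene is not a member of the list of oxidative phosphorylation subunits below. Scd4, a stearoyl-CoA desaturase, fell by 4.57 ± 0.88 in TE (adjusted p = 0.0108), a value that rests on RNA counts of 0, 2 and 21 in the knockout and 1, 1 and 0 in the control livers. Its call was lost in 4 of the 6 fits that left out 1 liver, with values from −4.92 to −2.75, and in 4 of 8 other settings.

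Gene lists of liver function are described by their counts, beside all genes tested. The 76 nuclear-encoded subunits of oxidative phosphorylation had 0 calls in RPF, RNA or TE. Their RPF groups did not overlap downward for 30 and upward for 13 of 76, beside 10.6% downward and 9.83% upward of all genes, and their median RPF change was −0.11, opposite in sign to the 0.995 of the mitochondrially encoded genes. Ndufv3, of complex I, had footprints of 79.0, 86.0 and 75.5 CPM in the knockout and 159, 125.2 and 118 CPM in the control livers (−0.74 ± 0.18, adjusted p = 0.101). For 76 mitochondrial ribosomal proteins the median was −0.12, with groups that did not overlap downward for 17 and upward for 5, and Mrps25 at −0.69 ± 0.20 (adjusted p = 0.162), which was called without knockout liver 3 (−0.89, adjusted p = 0.0394). For 74 cytosolic ribosomal proteins it was 0.12 in RPF and 0.24 in TE, with 2 called higher in RPF (Rpl10a and Rpl21, above), beside 0.103% of all genes. Their TE groups did not overlap upward for 6 and downward for 0, beside 6.07% upward and 5.18% downward of all genes. Of 47 translation factors 0 were called in RPF, and Eif2s1, the α subunit of initiation factor eIF2, had 23.0, 18.9 and 28.5 CPM in the knockout and 38.7, 31.2 and 40.2 CPM in the control livers (−0.65 ± 0.16, adjusted p = 0.111), and was called without knockout liver 3 (−0.81, adjusted p = 0.0298).

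Of 36 proteasome genes 1 was called lower in RPF (Psmb3), beside 0.196% of all genes. RNA changes were below 0 for 34 of the 36, with a median of −0.22 against 0.0015 for all genes, and RPF groups did not overlap downward for 15 and upward for 0, beside 10.6% downward and 9.83% upward of all genes. Of 15 MHC class I genes, whose products present the peptides that proteasomes cut, 0 were called, with RPF groups that did not overlap downward for 6 and upward for 0. H2-D1 footprints were 303, 319.5 and 367 CPM in the knockout and 472, 436 and 423 CPM in the control livers (−0.43 ± 0.14, adjusted p = 0.205), while its RNA lay at −0.0043 ± 0.14. Of 13 heat shock genes 1 was called lower in RPF (Hspe1), beside 0.196% of all genes. Of 20 genes of NRF2 and glutathione metabolism, Gsta2 was called higher in RPF and Gpx1 lower in TE, beside 0.103% higher in RPF and 0.0467% lower in TE of all genes. Mt1, a metallothionein, had RNA of 2.04, 8.08 and 5.72 CPM in the knockout and 2.01, 1.09 and 1.89 CPM in the control livers (1.89 ± 0.48, adjusted p = 0.385). Of 15 genes of the integrated stress response 0 were called in RNA, RPF or TE, with TE of Atf4 at −0.43 ± 0.20 (adjusted p = 0.722) and of Cebpb at −0.61 ± 0.20 (adjusted p = 0.455).

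Metabolic lists held few or no calls. Of 19 lipogenic genes 0 were called, RNA changes were above 0 for 17, and Fads1, a fatty acid desaturase, had footprints of 675, 587 and 574 CPM in the knockout and 455, 436 and 428 CPM in the control livers (0.48 ± 0.14, adjusted p = 0.161). Of 13 urea cycle genes 0 were called, and Ass1, argininosuccinate synthase, had 0.53 ± 0.18 (adjusted p = 0.230). Of 25 genes of fatty acid oxidation Acaa1a, a peroxisomal thiolase, had −0.52 ± 0.13 (adjusted p = 0.112). Of 41 genes of phase II conjugation Gsta2 was called higher in RPF, beside 0.103% of all genes, and Gstp2 had −2.29 ± 0.53 (adjusted p = 0.0713), on low counts. Among 47 cytochrome P450 genes 0 were called, with RPF changes above 0 for 37 and a median of 0.17. Of 22 acute phase genes 0 were called, with Orm1, an acute phase glycoprotein, at 0.44 ± 0.16 (adjusted p = 0.279) in RPF and Serpina3k, a serine protease inhibitor, at 0.36 ± 0.10 (adjusted p = 0.246) in TE. The RPF medians were 0.013 for 22 genes of the TCA cycle, 0.13 for 25 of cholesterol synthesis and uptake, 0.16 for 21 of bile acid metabolism, 0.014 for 20 of glucose metabolism and −0.076 for 34 of complement and coagulation, with 0 calls in each. Apolipoproteins (13), genes of the growth hormone axis (19) and chaperones of the endoplasmic reticulum (21) had 0 calls in RNA, RPF and TE. Of 17 clock genes, 0 had RPF groups that did not overlap, beside 9.83% of all genes upward and 10.6% downward.

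**Figure D5:**
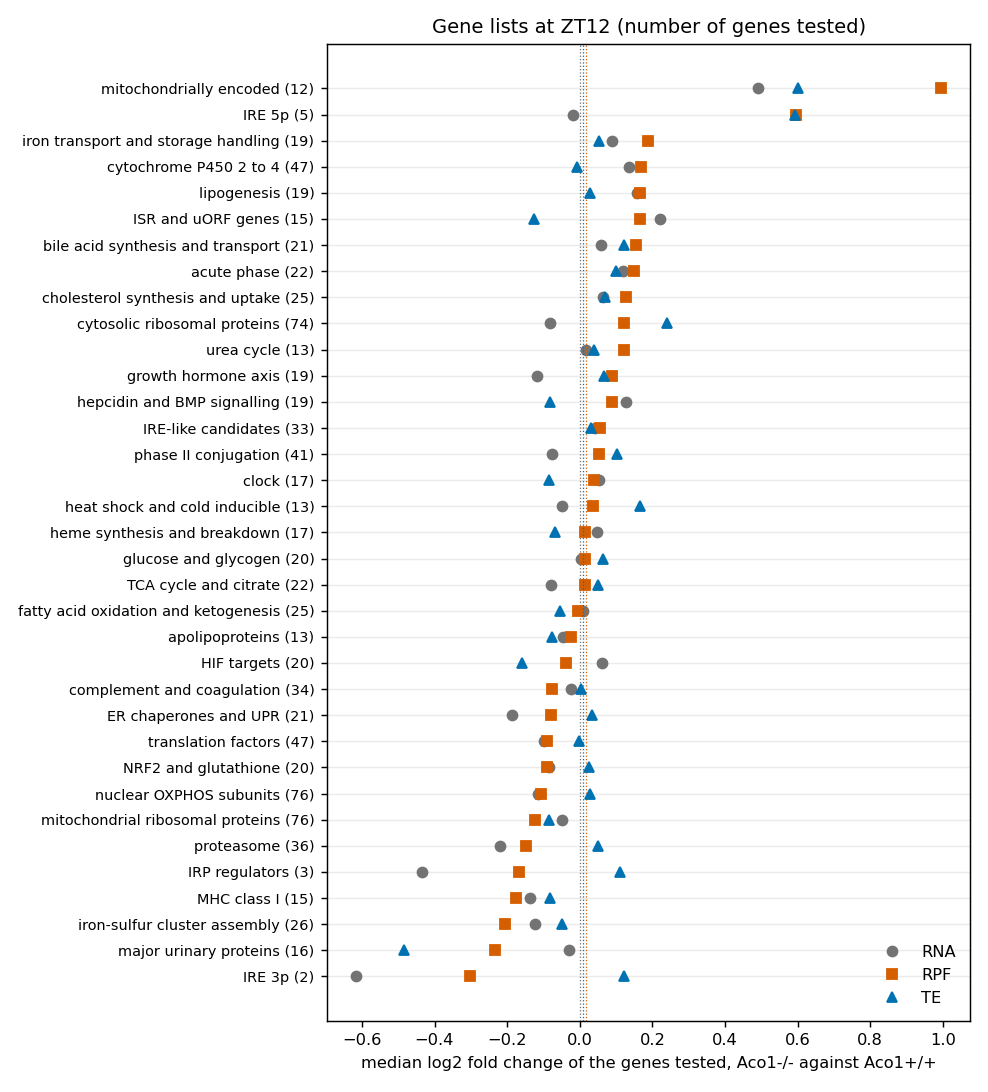
Median log2 fold change, Aco1-/- against Aco1+/+ at ZT12, of the members of each gene list other than the cell type markers in RNA, RPF and TE, with dotted lines at the medians of all genes tested. Of the lists drawn, the mitochondrially encoded one lies farthest to the right in RPF (0.995), followed by the 5′ IRE mRNAs (0.60). The RPF medians of the other lists drawn lie between −0.30 and 0.19.

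The ratio of 5′ UTR to CDS footprints was called in 379 of 3260 genes (11.6%), 51 higher (1.56%) and 328 lower (10.1%) in the knockout livers. The median change over all 3260 was −0.38, so single changes are to be read against that shift. With each region scaled by its own total, the median was −0.055, and 365 genes were called, 199 higher and 166 lower, of which 217 were among the 379. The direction of every ratio named below was the same under that scaling. Single livers set the count, which was 50 without knockout liver 1, the library with the lowest rho in its profile, 103 without control liver 2, 179 without control liver 3 and 550 without knockout liver 3. At ZT5 the same test called 0 genes (edgeR, 33 with an unadjusted p below 0.05). The part of the library differences in these ratios was not tested.

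Among lower ratios, Nat8, an acetyltransferase of the endoplasmic reticulum, had log2 ratios of −4.37, −3.68 and −3.40 in the knockout and −1.54, −0.85 and −1.06 in the control livers and fell by 2.80 ± 0.37 (adjusted p = 3.15e-05), with 24, 18 and 8 5′ UTR footprints against 67, 89 and 118. Ndufaf1, an assembly factor of complex I, had 0, 1 and 0 5′ UTR footprints in the knockout and 17, 26 and 14 in the control livers, with 159 to 281 in the CDS of every library. Its ratio fell (adjusted p = 2.38e-04), by a size that the single knockout footprint leaves undefined. Il6st, the receptor subunit gp130, had −6.17, −6.19 and −5.21 in the knockout and −3.67, −3.31 and −3.598 in the control livers (−2.31 ± 0.37, adjusted p = 2.58e-04). Pias2, a SUMO ligase, changed by −3.16 ± 0.50 (adjusted p = 2.38e-04), and Brwd3, a chromatin reader, by −3.81 ± 0.65 (adjusted p = 6.01e-04). These 2 rest on few 5′ UTR footprints, 5, 1 and 6 for Pias2 and 2, 1 and 0 for Brwd3 in the knockout against 31, 29 and 35 for Pias2 and 15, 12 and 19 for Brwd3 in the control livers. For these 5 and for Mup20 and Mup10 the knockout values lay below those of all 18 other RPF libraries, while their CDS footprints did not pass, as for Il6st at 0.13 ± 0.13 and Ndufaf1 at 0.018 ± 0.17. Abca8a, a membrane transporter (−3.61 ± 0.63, adjusted p = 7.58e-04), Ces2a, a carboxylesterase (−2.79 ± 0.50, adjusted p = 0.00115), and Cldn12, a claudin (−1.76 ± 0.32, adjusted p = 0.00119), were called too. The ratio of Abca8a rests on 0, 1 and 5 5′ UTR footprints in the knockout and 26, 38 and 31 in the control livers, and it ran from −5.37 to −2.95 when single livers were left out.

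Among higher ratios, Eif1, the initiation factor that governs start codon choice, had log2 values of 0.074, 0.47 and −1.004 in the knockout and −1.69, −1.80 and −1.78 in the control livers, a rise of 1.64 ± 0.34 (adjusted p = 0.00342). Etnk2, an ethanolamine kinase, had −3.96, −4.72 and −5.63 in the knockout and −6.69, −7.15 and −6.37 in the control livers (2.07 ± 0.42, adjusted p = 0.00342), with 95, 49 and 16 5′ UTR footprints in the knockout and 13, 10 and 17 in the control livers. Knockout liver 1 was the highest for Etnk2. Tmem70, an assembly factor of ATP synthase, rose by 2.15 ± 0.45 (adjusted p = 0.00377), Uqcrh, of complex III, by 1.95 ± 0.44 (adjusted p = 0.00653), and Mpc1, of the mitochondrial pyruvate carrier, by 1.72 ± 0.40 (adjusted p = 0.00741). Pacsin2, a membrane-bending protein (1.91 ± 0.42), Pttg1ip, a membrane protein that binds securin (2.45 ± 0.55), Ddt, a tautomerase (2.13 ± 0.52), and Apoc3, an apolipoprotein (2.48 ± 0.58), rose as well. For Apoc3 the groups overlapped, since knockout liver 3 (−6.745) lay just below control liver 3 (−6.66). Without knockout liver 1 the calls of Eif1 and Tmem70 were kept, while those of Etnk2, Uqcrh, Mpc1, Pacsin2, Pttg1ip, Ddt and Apoc3 were lost. Fth1, Eif1 and Tmem70 had knockout ratios above those of all 18 other libraries. The median RPF change was −0.28 for the 51 genes with a higher ratio and 0.16 for the 328 with a lower one, where the CDS footprints are themselves the denominator of the ratio. Of the 379, 6 were also called in RPF (Aco1, Ddx39b, Mrfap1, Mup21, Nme2 and Ywhaz), 3 in TE (Aco1, Mrfap1 and Mup20) and 1 in RNA (Aco1).

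In the gene lists, calls in this ratio are to be read beside the 10.1% of all tested genes that were called lower and the 1.56% called higher. Of 20 tested genes of cholesterol synthesis and uptake 3 fell, namely Srebf2, its master transcription factor (−2.96 ± 0.63, adjusted p = 0.00390), Insig1, its sterol-sensing brake (−1.49 ± 0.33, adjusted p = 0.00517), and the demethylase Cyp51 (−1.21 ± 0.40, adjusted p = 0.0434). Srebf2 had 0, 2 and 5 5′ UTR footprints in the knockout and 13, 20 and 25 in the control livers, and its value ran from −4.24 to −2.20 when single livers were left out. Without knockout liver 1 all 3 of these calls were lost, and Cyp51 also lost its call under own-total scaling and in 3 other settings. Of 36 nuclear subunits of oxidative phosphorylation 6 fell and 1, Uqcrh, rose, beside a list median of −0.61. Of 14 proteasome genes 3 fell, and of 18 cytochrome P450 genes 4 fell, among them Cyp4a10 (−2.09 ± 0.54, adjusted p = 0.0120) and Cyp3a11 (−1.51 ± 0.42, adjusted p = 0.0187). Of 10 hepatocyte markers, Hnf4a, a transcription factor that defines the cell type (−2.04 ± 0.50, adjusted p = 0.00936), and Serpina1b fell. The co-chaperones Dnaja1 (−1.98 ± 0.42, adjusted p = 0.00390) and Hsph1 (−2.03 ± 0.47, adjusted p = 0.00697) fell among 7 heat shock genes. Among iron genes, Ciao2a, of the cytosolic iron-sulfur assembly machinery, fell by 2.01 ± 0.42 (adjusted p = 0.00377) and Hspa9, the mitochondrial chaperone of cluster transfer, rose by 1.96 ± 0.55 (adjusted p = 0.0186). The calls of Dnaja1, Hsph1 and Ciao2a held in all 6 fits that left out 1 liver, that of Hnf4a in 5, of Cyp4a10 in 4, and of Cyp3a11, Serpina1b and Hspa9 in 2.

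Further list members called in this ratio follow. Slc10a1, the bile acid importer NTCP, fell by 1.61 ± 0.39 (adjusted p = 0.00907), and Cyp7b1, an enzyme of the alternative bile acid pathway, fell by 1.92 ± 0.41 (adjusted p = 0.00405). Hsp90b1, the chaperone GRP94, had log2 ratios of −8.34, −7.66 and −6.81 in the knockout and −5.81, −5.89 and −5.65 in the control livers (−1.81 ± 0.44, adjusted p = 0.00878), and Tapbp, which loads peptides on MHC class I, had −7.33, −8.47 and −8.76 in the knockout and −6.27, −5.73 and −5.68 in the control livers (−2.22 ± 0.55, adjusted p = 0.00998). Tef, a PAR-bZIP factor driven by the clock, had −1.82 ± 0.47 (adjusted p = 0.0120), and Ghr, the growth hormone receptor, had −1.14 ± 0.34 (adjusted p = 0.0264). Upward, Pck1, which commits carbon to gluconeogenesis, rose by 1.32 ± 0.44 (adjusted p = 0.0440), Bnip3, a mitophagy receptor, by 1.69 ± 0.47 (adjusted p = 0.0186), and Gstp1, a glutathione transferase, by 1.62 ± 0.49 (adjusted p = 0.0276). Knockout liver 3 overlapped the controls for Gstp1. The calls of Tapbp and Cyp7b1 held in all 6 fits that left out 1 liver, those of Hsp90b1 and Tef in 5, of Bnip3 in 4, of Slc10a1 in 3, of Ghr and Gstp1 in 2 and of Pck1 in 1.

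To ask whether an effect was particular to ZT12, the genotype effect at ZT12 was tested against that at ZT5 in the same line. In RNA and in RPF 0 genes passed in edgeR, with 628 and 590 at an unadjusted p below 0.05, and 1 passed in RPF with TMM scaling. In TE 3 passed (0.028%), mt-Co1, mt-Nd5 and Mup12. The TE difference of mt-Co1 was 0.83 ± 0.13 at ZT12 and −0.27 ± 0.13 at ZT5, apart by 1.1 (adjusted p = 0.00462). That of mt-Nd5 was 0.67 ± 0.12 at ZT12 and −0.21 ± 0.12 at ZT5, apart by 0.89 (adjusted p = 0.0179). For Slc40a1 TE lay at 0.48 ± 0.15 at ZT5, and its difference of 0.25 did not pass (adjusted p = 0.993). Aco1 fell at both times, with −2.35 ± 0.15 and −2.36 ± 0.15 in RPF, apart by 0.011 ± 0.21. In the 5′ UTR ratio 13 genes passed (0.399%), 12 lower and 1 higher at ZT12 than at ZT5.

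IRP2 has its own knockout line in the series, and the effect of IRP1 loss at ZT12 was tested against that of IRP2 loss in 1 fit of all 24 mice. In RNA 0 genes differed (edgeR, 534 with an unadjusted p below 0.05). In RPF 9 did (0.0841%), and in TE 4 (0.0374%). Among them were the 2 targeted genes. Ireb2 footprints lay at 0.13 ± 0.15 on loss of IRP1 and at −0.98 ± 0.15 on loss of IRP2, while Aco1 footprints lay at −0.091 ± 0.13 on loss of IRP2. Ubb (−1.11), Ddx39b (−0.80) and Hspe1 (−1.74) were lower in RPF on loss of IRP1 than on loss of IRP2, and in TE Gpx1 (−0.77) and Mup12 (−2.12) were. On loss of IRP2 the TE of Gpx1 lay at 0.056 ± 0.11. For the 5′ IRE mRNAs the difference between the lines in TE did not pass for any of the 5, at 0.80 for Slc40a1 (adjusted p = 0.331), 0.90 for Fth1 (adjusted p = 0.951) and 0.68 for Epas1 (adjusted p = 0.625).

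Markers of hepatocytes were abundant in every liver, with a summed RNA level of 142600 to 157600 CPM over 10 genes in the knockout and 146500 to 171000 CPM in the control livers. Those of Kupffer cells (438 to 549 against 431 to 492 CPM over 10 genes), endothelial cells (534 to 635 against 521 to 585) and stellate cells (586 to 678 against 606 to 644) overlapped between the groups. Lymphocyte markers summed to between 0 and 2.995 CPM, with the pan-leukocyte gene Ptprc and the T cell receptor gene Trbc2 at 0 and 5 of 10 listed genes in the files. Cholangiocyte markers (6 of 8 in the files) reached 34.6 CPM in knockout liver 3, against 9.16 and 17.6 in the other knockout livers and 11.7 to 12.6 in the controls. Erythroid markers (6 of 10 in the files, mainly the globins) were 83.4, 108.8 and 3.54 CPM in the knockout and 65.6, 31.1 and 28.6 CPM in the control livers, while Alas2 RNA was 122.1, 147.7 and 97.7 CPM and 120.4, 115 and 138 CPM. Knockout liver 3 thus stood out with the lowest globin and the highest Hamp, Id1 and cholangiocyte RNA, and the part of these in its other values was not tested.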

How the data were processed

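RPF and total RNA libraries of 6 livers (3 Aco1-/-, 3 Aco1+/+, ZT12) were used. The authors trimmed reads with cutadapt 3.5, removed unwanted reads with Bowtie2, aligned with STAR against Ensembl 100, kept RPF reads of 24 to 35 bases and RNA reads of 21 to 60, and deposited raw read counts per gene and transcript region, 1 table per sequencing run. The counting tool and strand setting are not given in the sources used here. The columns carry no names, and CDS and 5′ UTR were read from their totals.

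Runs of 1 library were summed. In CDS counts they lay near counting error, with a chi-square over its degrees of freedom of 0.992 to 1.08, while mice of a group gave 3.69 to 23.7. The 5′ UTR counts of the runs were not checked in this way. CDS counts were tested with edgeR 4.0.16 (R 4.3.3; robust quasi-likelihood, upper-quartile scaling over 48 libraries, minimum count 10) in the 12 mice of the Aco1 line, TE and the 5′ UTR to CDS ratio as interactions within mouse, and adjusted by Benjamini-Hochberg with a threshold of 0.05. SE is the fold change divided by the root of F. Single values had an exact two-sided permutation test. Fits were tested on simulated data, with 100 genes changed 2-fold and 100 changed 3-fold. For TE 44 and 67% were found and 15 of 126 calls (11.9%) were of unchanged genes. For RPF 45 and 89% were found (6.29% of calls unchanged), for RNA 56 and 81% (5.52%), and for the ratio 14 and 59% (3.95%). The tools of the alternatives were DESeq2 1.42.0 and limma 3.58.1.

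The members were picked by their labels, but earlier results of these data were known by then, as they were when the gene lists were chosen. Named are the 10 smallest p per direction and measure among calls whose groups do not overlap (3 where fewer than 3 passed), IRE genes, mitochondrially encoded genes, and of each list the calls and up to 3 of smallest p. Coordinates are from RefSeq (GRCm38.p6). Intervals and tests on counts cover these 6 livers only. Some genes of these lists are not reported here.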

Additional observations from a re-analysis of the deposited data

Results flagged for a closer look

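The genotype effect differed between ZT12 and ZT5 by the test of the difference itself (edgeR, adjusted p below 0.05) for 3 genes in TE. The difference, ZT12 minus ZT5 on the log2 scale, was −2.47 ± 0.357 for Mup12 (adjusted p = 3.84e-04), 1.1 ± 0.183 for mt-Co1 (adjusted p = 0.00462) and 0.888 ± 0.167 for mt-Nd5 (adjusted p = 0.0179).

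In the ratio of 5′ UTR to CDS footprints the same test picked out 13 genes, with adjusted p from 0.00592 to 0.0397. The difference was negative for Mup20 (−3.433), Mup10 (−3.833), Brwd3 (−4.211), Nat8 (−2.637), Pias2 (−3.313), Ndufaf1 (−4.616, a fitted value from almost no knockout counts) and Abca8a (−3.687). It was positive for Etnk2 (2.825). Fgd6 (−2.861), Slc30a9 (−3.084), Slc6a12 (−2.31), Mink1 (−3.365) and Ssb (−2.301), all negative, are named after their values were seen. Knockout livers 1 and 2, which enter these differences, had ratio profiles below those of every other library, and the part of that in the values was not tested.

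The effect of IRP1 loss differed from that of IRP2 loss at ZT12 in RPF for Aco1 (−2.258, adjusted p = 8.98e-09) and Ireb2 (1.108), the genes targeted in the 2 lines. It also differed for Ubb (−1.109), Ddx39b (−0.8008) and Hspe1 (−1.735), and for 3 genes named after their values were seen, Nagpa (−1.218), Rpl6 (1.788) and Rps6 (1.633). A predicted gene made up the 9. Adjusted p was 0.027 to 0.0461 for those other than Aco1, and the counts of ribosomal protein genes can be shared with processed copies. In TE the differences were −1.496 for Aco1 (adjusted p = 4.33e-08), 1.395 for Ireb2 (adjusted p = 0.00336), −2.124 for Mup12 (adjusted p = 0.00482) and −0.7728 for Gpx1 (adjusted p = 0.0244).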

How the results depend on the processing

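Directions held more often than calls. Of genes called, leaving out livers or changing settings gave the call again in 260 and lost it in 155 of the refitted values in RPF, and in 110 and 44 in TE, with 1 turned, Mup20 in TE, at −0.42 with counts over all columns. The share of tested genes called in RNA was 0.0187% with DESeq2, 0% over all columns, 0.021% in the first sequencing run alone and 0.0187% with only the 6 mice compared, and 0 to 0.477% without single livers. In RPF it was 1.14% with DESeq2, 0.124% over all columns, 0.189% in the first run, 0.245% with a minimum count of 50 and 0.617% with the 6 mice, and 0.0655 to 1.496% without single livers. In TE it was 0.292% over all columns, 0.00935% with libraries not paired by mouse, 0% with limma on TE per mouse and 0.136% with no filter, and 0.0374 to 0.542% without single livers. For the 5′ UTR to CDS ratio it was 3.69% in the first run, 25.1% of genes with a mean of at least 50 5′ UTR counts and 7.64% with the 6 mice, and 1.53 to 16.9% without single livers. The difference in RPF between ZT12 and ZT5 was called in 0.00935% with TMM. The share of mitochondrial footprints was higher by 0.191 to 0.238 percentage points, and 5′ UTR footprints per 100 in the CDS differed by −0.619 to −0.334, without single livers. Values that turned sign and were never called were those of Slc11a2 RNA (0.19) and Ireb2 RPF (−0.055) in the first run, the 5′ UTR ratios of Ftl1 and Epas1 in the first run (−0.32 and −0.47) and without single livers (−0.076 to 0.52 and −0.17 to 0.33), Hamp RPF (−0.21 to 0.25) and Ftl1 TE (−0.35 to 0.74) without single livers. The cause of these shifts was not tested.

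With the replicate number as a block, 0.0187% of genes were called in RNA, 1.40% in RPF, 0.206% in TE and 8.99% in the 5′ UTR ratio. Livers with the same number did not deviate together (Pearson's r across genes −0.093 to −0.0447 in RNA and −0.0967 to 0.0077 in RPF, 0 of 3 best with its own number). This check rests on deviations from means of 3 livers, so it cannot exclude that livers of 1 number were handled together. RNA depth, 1546347 counts at the lowest, is a limit on TE.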
